A study of Mus musculus with 27 samples.

Results

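Lyz1, Mptx2, Ang4, Itln1 and Mmp7 encode antimicrobial or processing proteins that Paneth cells make in addition to their defensins, and their RNA was followed through 27 libraries of mouse intestine. The genes were chosen by symbol, and all 5 were found among the 23420 genes of the count table. According to its title, the study asked whether drinking alcohol loosens the barrier of the colon and shifts what the stem cells of colon organoids become, organoids being cultures grown from intestinal epithelial stem cells. All mice were C57BL/6, an inbred strain, and the groups differed in 3 labelled features: 15% ethanol or water to drink for 8 weeks, jejunum or colon, and organoids or whole tissue. There were 4 ethanol and 4 control jejunum organoid libraries, 2 ethanol and 2 control colon organoid libraries, 4 ethanol and 3 control jejunum tissue libraries, and 4 ethanol and 4 control colon tissue libraries. The labels tie each library to a numbered donor, and the same 4 donor numbers recur under both treatments. They say neither whether ethanol was added to the cultures nor how long these were grown, so "ethanol organoids" means only that the label of the organoids is ethanol.

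Paneth cells sit at the base of the crypts of the small intestine and release dense granules into the crypt lumen. The granules hold alpha-defensins together with other proteins that damage or bind microbes, and the cells also supply growth signals to the neighbouring stem cells. The healthy mouse colon has no Paneth cells, although some of their products are also made by goblet cells, the mucus-secreting cells of the crypt and surface. Lyz1 encodes the lysozyme of Paneth granules, which cuts the peptidoglycan of bacterial walls, and its neighbour Lyz2 encodes the lysozyme of macrophages. Ang4 encodes a microbicidal ribonuclease of the angiogenin family. Itln1 encodes intelectin, a lectin that binds sugars found on microbes, and Mptx2 encodes a mucosal pentraxin, a member of a family of pattern-binding proteins. Mmp7 encodes matrilysin, the metalloprotease that cuts alpha-defensin precursors into their active form in mouse Paneth cells. In the GENCODE annotation of GRCm38 the genes span chr10:117287797-117292868 (Lyz1), chr1:173274382-173277777 (Mptx2), chr14:51763878-51773590 (Ang4) and chr1:171518122-171535294 (Itln1) on the minus strand and chr9:7692090-7699585 (Mmp7) on the plus strand.

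The 150 bases before each annotated start (RefSeq, GRCm38.p6) are shown because the RNA of these genes differed together between jejunum and colon. They lie on the minus strand at chr10:117292869-117293018 (Lyz1), chr1:173277757-173277906 (Mptx2), chr14:51773591-51773740 (Ang4) and chr1:171535295-171535444 (Itln1), and on the plus strand at chr9:7691940-7692089 (Mmp7), each written from 5′ to 3′ of its gene. Capitals mark exact matches, on either strand, to CTTTGT or CTTTGA (cores bound by TCF factors of the Wnt pathway), CAGCTG (an E-box), TTTATGG or TTTATTG (cores bound by CDX factors) and, within the 50 bases before the start, TATAAA.
Lyz1: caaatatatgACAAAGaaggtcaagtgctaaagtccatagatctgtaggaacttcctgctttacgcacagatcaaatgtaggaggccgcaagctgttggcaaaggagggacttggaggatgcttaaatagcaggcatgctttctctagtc
Mptx2: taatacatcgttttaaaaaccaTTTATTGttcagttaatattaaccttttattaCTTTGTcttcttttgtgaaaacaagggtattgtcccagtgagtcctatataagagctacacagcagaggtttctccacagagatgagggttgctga
Ang4: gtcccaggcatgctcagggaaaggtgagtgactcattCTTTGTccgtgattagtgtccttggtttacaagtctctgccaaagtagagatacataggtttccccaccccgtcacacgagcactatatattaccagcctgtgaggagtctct
Itln1: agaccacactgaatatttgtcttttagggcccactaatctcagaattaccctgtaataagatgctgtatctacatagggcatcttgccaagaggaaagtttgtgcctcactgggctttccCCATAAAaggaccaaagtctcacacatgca
Mmp7: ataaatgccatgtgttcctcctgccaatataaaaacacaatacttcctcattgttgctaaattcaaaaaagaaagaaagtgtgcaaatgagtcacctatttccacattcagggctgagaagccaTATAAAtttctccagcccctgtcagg
Over the full 250 bases, CTTTGT or its reverse complement occurred before Lyz1, Mptx2 and Ang4, 3 of 5 genes, against 16.5% of 32851 mouse promoters. TTTATGG occurred before Itln1 (2.43% of promoters), TTTATTG before Mptx2 and, outside the stretch shown, Mmp7 (4.20%), and TATAAA before Mmp7 (3.504%). CTTTGA and CAGCTG were found before none of the 5, against 13.8% and 13.0% of promoters. In gapped alignments, 288 to 304 positions long, the windows of different members were 48.3% to 51.0% identical. The Lyz1 window was 78.8% identical to that of Lyz2 and the Mptx2 window 74.0% identical to that of its relative Mptx1. Gaps raise such shares above those of a base-by-base count, and no windows of unrelated genes were aligned for comparison. These matches describe the letters of the windows and say nothing of binding.

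Libraries held 1337068 to 16312562 counts, of which Rn45s, the precursor of ribosomal RNA, took 18.3% to 84.3%. Levels are therefore given as CPM with the counts outside Rn45s as the total, which numbered 684906 to 7606668 per library. The protocol reads 1 tag near the 3' end of each transcript, so the levels of different genes can be compared with no length correction. The 24 listed alpha-defensins in the table summed to 8493 to 29354 CPM in every jejunum library and to 1.92 to 40.3 CPM in every colon library. Smooth muscle genes stayed under 1 CPM in jejunum organoids and reached 232 to 1942 CPM in jejunum tissue and 3346 to 19035 CPM in colon tissue, so the tissue libraries hold more than epithelium. Hoxb13, a gene of the distal colon, set 3 colon tissue libraries apart, with 182 and 801 CPM in ethanol libraries 1 and 2 and 183 CPM in control library 1, against at most 0.274 CPM in the other 5. In such bulk samples, fewer cells of a type and less RNA per cell cannot be told apart.

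The 5 products spanned a wide and graded range of levels in the jejunum. Itln1 was the most abundant in jejunum organoids at 2419.5 ± 664 CPM, followed by Lyz1 at 1216 ± 530 CPM, Ang4 at 227 ± 111 CPM, Mmp7 at 27.9 ± 12.9 CPM and Mptx2 at 6.67 ± 4.22 CPM (SD, n = 8). In jejunum tissue the order was Lyz1 at 1064 ± 344 CPM, Itln1 at 835 ± 199.7 CPM, Ang4 at 71.7 ± 46.0 CPM, Mptx2 at 26.4 ± 21.3 CPM and Mmp7 at 2.05 ± 1.59 CPM (SD, n = 7). In organoids the ranges of Itln1 and Lyz1 overlapped, as did those of Mmp7 and Mptx2. In tissue the ranges of Lyz1 and Itln1 overlapped, as did those of Ang4 and Mptx2. Among 23419 genes ranked by mean CPM, Itln1 stood 42nd in ethanol and 22nd in control jejunum organoids, and Lyz1 stood 98th and 67th. The 5 genes together made 2439 to 5011 CPM in ethanol and 3583 to 5906 CPM in control jejunum organoids, and 1043 to 2642 CPM in ethanol and 1696 to 2216 CPM in control jejunum tissue.

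In the colon the order was different. Lyz1 led in colon organoids at 109.7 ± 69.0 CPM, Mmp7 followed at 16.7 ± 19.9 CPM, and Itln1 at 2.30 ± 4.11 CPM and Ang4 at 1.18 ± 1.45 CPM were near the level of a few counts (SD, n = 4). In colon tissue Ang4 was highest at 24.8 ± 25.9 CPM, ahead of Lyz1 at 6.57 ± 3.06 CPM, Itln1 at 1.91 ± 0.976 CPM and Mmp7 at 0.237 ± 0.246 CPM (SD, n = 8). Mptx2 had no count in any of the 12 colon libraries, which allows up to 0.426 CPM over the colon organoids and 0.0745 CPM over the colon tissue libraries (3 counts over all libraries of a kind). The ranges of Itln1, Ang4 and Mmp7 overlapped in colon organoids, as did those of Lyz1 and Mmp7. In colon tissue those of Ang4, Lyz1 and Itln1 overlapped with each other, as did those of Itln1 and Mmp7.

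**Figure D1:**
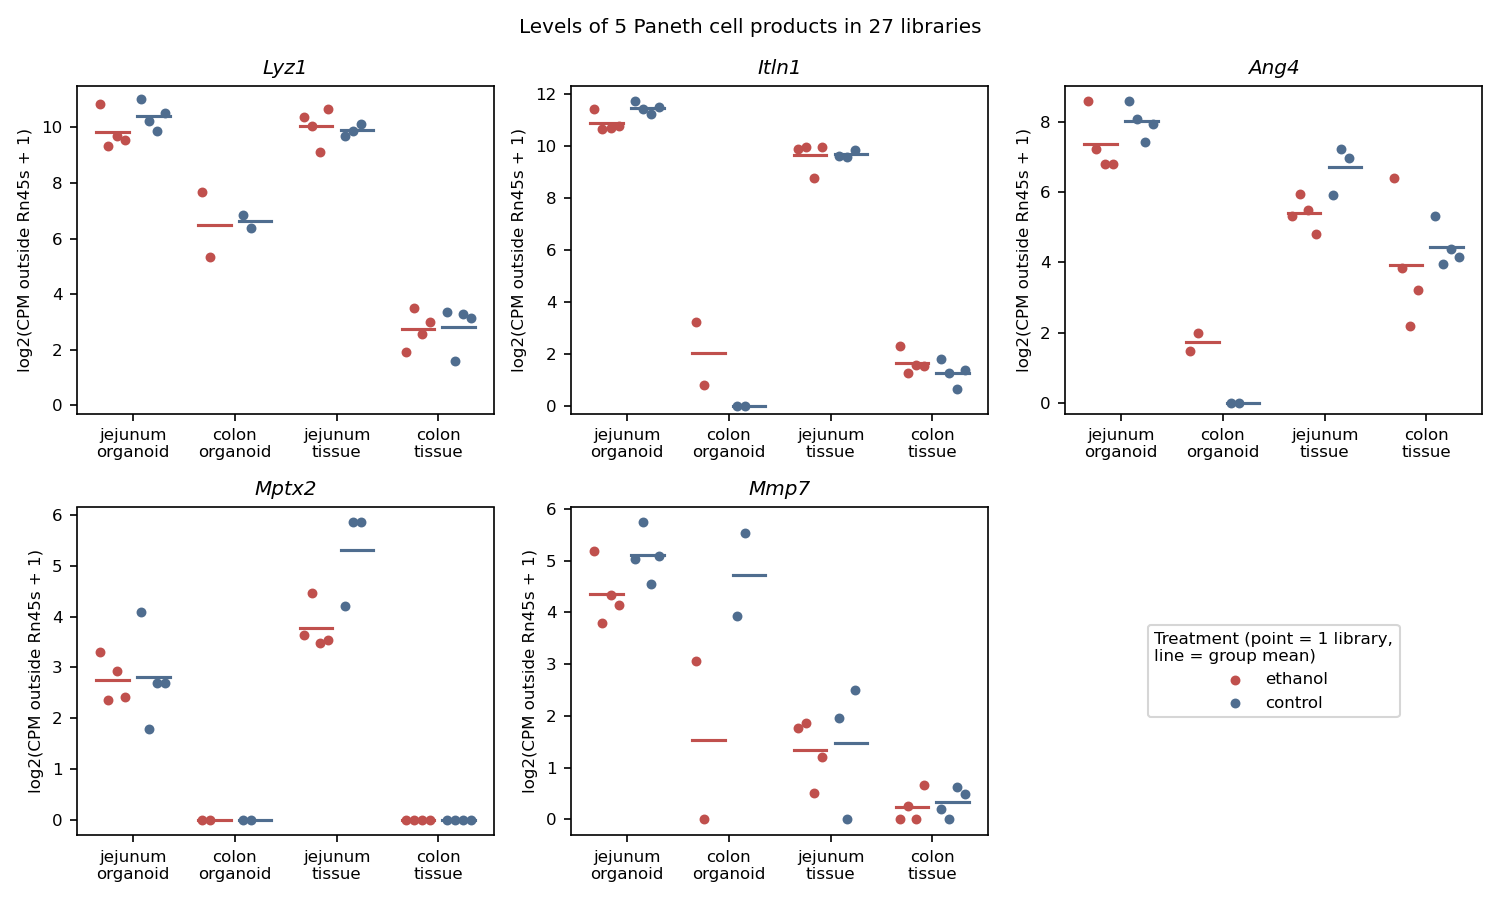
Level of each of the 5 genes in every library (points) as log2(CPM outside Rn45s + 1) on the vertical axis, by kind of sample on the horizontal axis, with ethanol left of control. Lines mark group means on this scale. Mptx2 is at 0 in all 12 colon libraries, and Lyz1 and Itln1 lie between 432 and 3402 CPM in every jejunum library.

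Whole tissue of the jejunum was set against whole tissue of the colon first, over both treatments. Lyz1, Mptx2, Ang4 and Itln1, the 4 members that could be tested, were all higher in the jejunum (edgeR quasi-likelihood test, Benjamini-Hochberg adjusted p under 0.05), where 60.9% of 13434 genes were called and 25.5% were called higher. For 3 of the 4, Ang4 excepted, no jejunum library fell within the colon range, as for 7.71% of all genes. Mptx2 had no count in colon tissue and reached the count filter through the jejunum, so its call adds no separate result. Lyz1 had 1340.2, 1062, 557 and 1614 CPM in ethanol and 829.6, 934 and 1111 CPM in control jejunum tissue, against 2.73, 10.3, 4.85 and 7.03 CPM in ethanol and 9.13, 1.98, 8.78 and 7.71 CPM in control colon tissue. Every jejunum library lay far above every colon library, by 7.84 ± 0.36 on the log2 scale (SE, edgeR adjusted p = 4.59e-12). Itln1 had 959, 990.1, 432 and 989 CPM in ethanol and 787, 772 and 919.8 CPM in control jejunum tissue, against 3.87, 1.39, 1.98 and 1.90 CPM in ethanol and 2.52, 1.41, 0.549 and 1.62 CPM in control colon tissue. Again every jejunum library lay far above every colon library, by 9.30 ± 0.31 on the log2 scale (SE, edgeR adjusted p = 2.46e-14).

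Mptx2 and Ang4 differed in how clearly they separated the tissues. Mptx2 had 11.4, 21.0, 10.2 and 10.6 CPM in ethanol and 17.4, 56.9 and 57.0 CPM in control jejunum tissue, against 0 counts in all 8 colon tissue libraries. Its mean was at least 354-fold higher in the jejunum, taking 3 counts over the colon group as the floor (edgeR adjusted p = 1.48e-08). Mptx1, its closest relative in the table, reached 404 and 4609.8 CPM in ethanol colon tissue libraries 1 and 2 and 225 CPM in control colon tissue library 1, and no count was assigned to Mptx2 in these. Ang4 had 39.1, 60.8, 43.4 and 26.8 CPM in ethanol and 59.5, 147 and 124 CPM in control jejunum tissue, against 83.3, 13.3, 3.60 and 8.20 CPM in ethanol and 39.1, 14.4, 19.8 and 16.6 CPM in control colon tissue. The 2 tissues overlapped, and the log2 fold of Ang4 was 2.04 ± 0.53 (edgeR adjusted p = 0.00450), or 2.95 without ethanol colon tissue library 1. That library, with the highest Ang4 of the colon, was among those set apart by Hoxb13. It also had the highest smooth muscle sum (19035 CPM) and the lowest goblet marker sum of colon tissue (7237 CPM, against up to 57929 CPM). Control colon tissue library 1, next in Ang4 at 39.1 CPM, also had Hoxb13 and a smooth muscle sum of 14031.5 CPM. Ethanol library 2, with Hoxb13 as well, had 13.3 CPM of Ang4. The part of these features in the Ang4 levels was not tested. Mmp7 had 38 counts over all jejunum tissue libraries and 10 over all colon tissue libraries, too few to be tested.

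Of the other Paneth cell lists in tissue, all 15 tested alpha-defensins were higher in the jejunum. The 24 listed in the table summed to 1.92 to 15.2 CPM in colon tissue, so those tested reached the count filter through the jejunum. Their count is therefore no separate result. Among 11 tested genes of the list of other Paneth cell genes, 4 were higher and 3 lower. Of all genes 25.5% were called higher and 35.4% lower, so these counts are near the shares over all genes. The called genes include Slc30a2, which encodes a zinc transporter, at a log2 fold change of 7.04, Habp2 at 6.35, Pnliprp2, a lipase gene, at 5.31 and Cd24a at -0.95. Of the 7 regulators of Paneth and other secretory cells none was higher and 5 were lower, beside the same shares over all genes. Among the 5 were the transcription factor genes Spdef (-1.55), Atoh1 (-1.48), Sox9 (-1.42) and Xbp1 (-0.79).

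In organoids, all 5 members were called higher in the jejunum, where 59.9% of 12922 genes were called and 31.1% were called higher. For 4 of the 5, Mmp7 excepted, all jejunum libraries lay above all colon libraries, as for 17.3% of all genes. Mptx2, Ang4 and Itln1 did not reach the count filter in colon organoids alone and were tested through their jejunum level. The count of members called is therefore no separate result. Itln1 had 2755, 1628, 1664 and 1766 CPM in ethanol and 3402, 2745, 2447 and 2948 CPM in control jejunum organoids, against 8.44 and 0.743 CPM in ethanol colon organoids and 0 in both control colon organoid libraries. With only 25 counts in all colon organoids, its log2 fold of 12.41 ± 0.60 (edgeR adjusted p = 7.30e-08) became 13.88 without ethanol colon organoid library 1, which held 24 of them. Ang4 had 382, 148, 111 and 109 CPM in ethanol and 382, 269.6, 169 and 244 CPM in control jejunum organoids, against 1.76 and 2.97 CPM in ethanol colon organoids and 0 in both control libraries. Its log2 fold change was 9.66 ± 0.83 (edgeR adjusted p = 3.16e-06), resting on 9 counts in the colon. The fitted folds of Itln1 and Ang4 average in the control colon organoids, which had no counts. Their sizes therefore depend on the prior count, a small count that the fit adds, and are not measured folds. Against both control colon organoid libraries alone, which had no counts, the control jejunum organoids were at least 253-fold higher for Ang4 and at least 2746-fold higher for Itln1.

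Lyz1 separated the segments less in organoids, with a higher level in the colon cultures than in colon tissue. It had 1829.9, 646, 824 and 738 CPM in ethanol and 2075, 1198, 940.3 and 1480.1 CPM in control jejunum organoids, against 202 and 39.4 CPM in ethanol and 115 and 81.9 CPM in control colon organoids. The ranges did not overlap, and the log2 fold was 3.61 ± 0.50 (edgeR adjusted p = 7.70e-05), or 4.49 without ethanol colon organoid library 1. Mptx2 had 8.84, 4.11, 6.59 and 4.36 CPM in ethanol and 16.02, 2.45, 5.51 and 5.43 CPM in control jejunum organoids, against 0 in all 4 colon organoid libraries. Its mean was at least 15.6-fold higher (edgeR adjusted p = 0.000607), and it was no longer called with the donor number within treatment as a block (adjusted p = 0.0654).

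Mmp7 was the weakest of the 5 calls in organoids. It had 35.2, 12.8, 19.1 and 16.6 CPM in ethanol and 31.5, 52.4, 22.3 and 33.2 CPM in control jejunum organoids, against 7.38 and 0 CPM in ethanol and 14.2 and 45.2 CPM in control colon organoids. The kinds overlapped, since control colon organoid library 2 lay above all but 1 jejunum library. The log2 fold change of Mmp7 was 1.47 ± 0.55 (edgeR adjusted p = 0.0349). The call was lost without control colon organoid library 1 (1.10, adjusted p = 0.0783), ethanol colon organoid library 2 (1.11, 0.0742), control jejunum organoid library 1 (1.49, 0.0544), 2 (1.303, 0.0794) or 4 (1.43, 0.0653), and ethanol jejunum organoid library 1 (1.22, 0.0829) or 3 (1.45, 0.0600). Without ethanol colon organoid library 1 the fold was 4.96, and in control organoids alone it was 0.65 (adjusted p = 0.474). With the donor number as a block the adjusted p was 0.0726, and with the number within treatment 0.0938. Among the alpha-defensins tested in organoids, 17 of 18 were higher in the jejunum. The 24 listed in the table summed to 17.7 to 40.3 CPM in colon organoids, and 2 reached the count filter there alone. The others were thus tested through their jejunum level, and their count is no separate result. Other Paneth cell genes were higher in 6 of 11 cases, against 31.1% of all genes, among them Slc30a2 (6.66), Dll4, a Notch ligand gene (5.91), and Clps, a colipase gene (5.43). Of the 7 regulators 6 were higher, among them Bhlha15 (5.72) and Atoh1 (3.69), and Sox9 was lower (-1.84), where 31.1% of all genes were higher and 28.8% lower.

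Lyz1 and Lyz2 had to be told apart before the colon values of Lyz1 could be read. Of the 36-base words in the last 500 bases of the Lyz1 transcript, 32.0% also occur in Lyz2, and 17.7% of its 50-base words do. For the other members the share of 36-base words found in another gene was 13.5% for Ang4, 5.38% for Mptx2, 1.29% for Itln1 and 0 for Mmp7. Lyz1 made 99.88% to 99.98% of the summed Lyz1 and Lyz2 counts in jejunum organoids and 99.7% to 100% in jejunum tissue. In colon organoids it made 48.2% to 100% (median 72.9%, n = 4), and in colon tissue 15.2% to 47.8% (median 33.7%, n = 8). The jejunum values are thus almost free of Lyz2 counts, while a part of the few Lyz1 counts of the colon could be reads of Lyz2, since no label says where the authors' counting placed shared reads.

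Lyz2 had 83.3 and 42.4 CPM in ethanol and 38.3 and 0 CPM in control colon organoids, and 7.19 to 21.7 CPM in ethanol and 5.37 to 23.8 CPM in control colon tissue. It was lower in the jejunum both in organoids (log2 fold change -5.13, edgeR adjusted p = 5.72e-05) and in tissue (-2.501, adjusted p = 0.000427), opposite to Lyz1. Control colon organoid library 2 had 81.9 CPM of Lyz1 and no count of Lyz2. With the counts of both genes summed, the jejunum remained higher, by 6.23 in tissue and 3.18 in organoids on the log2 scale. The 11 macrophage markers in the table, Lyz2 among them, summed to 683 and 220 CPM in ethanol and 138 and 103 CPM in control colon organoids. In jejunum organoids the sum was 11.5 to 16.9 CPM. Of the 11, 3 had no count in ethanol colon organoids (C1qb, C1qc and Mrc1). In control colon organoids 4 had none (Itgam, C1qa, C1qb and Mrc1), and all the other markers had counts. The part of other cells in the lysozyme counts of colon organoids was not tested.

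**Figure D2:**
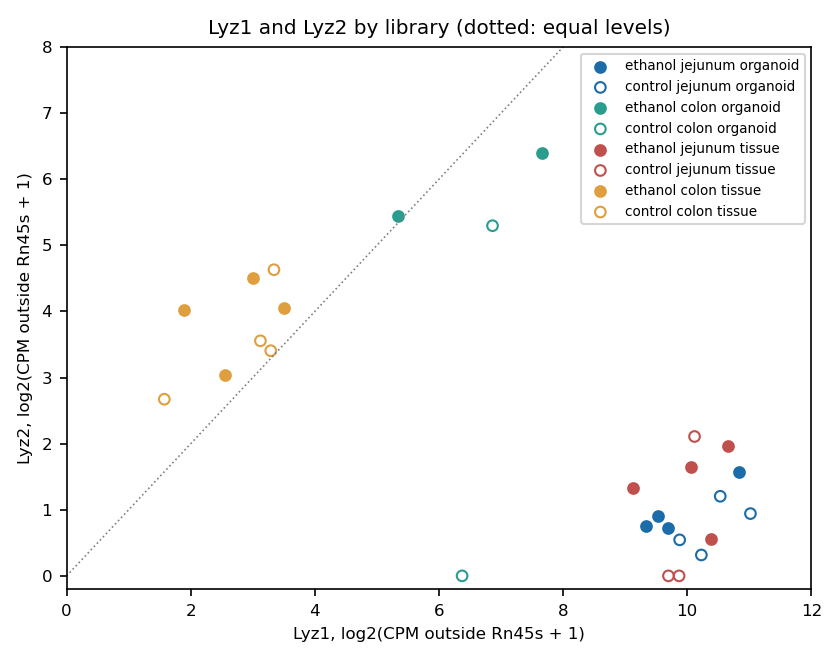
Lyz1 (horizontal axis) and Lyz2 (vertical axis) in each of the 27 libraries, both as log2(CPM outside Rn45s + 1), with 1 point per library, ethanol filled and control open, and a dotted line at equal levels. Jejunum libraries lie at high Lyz1 and low Lyz2, and the 8 colon tissue libraries lie above the dotted line, with Lyz1 at 15.2% to 47.8% of both.

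Organoids were next set against the whole tissue of the same segment, in 1 fit of all 27 libraries. In the jejunum, 3 members were higher in organoids and 1 was lower, where 63.8% of 14785 genes were called, 25.8% higher and 38.1% lower. The ranges of 2 members, Mmp7 and Itln1, were apart, as were those of 24.6% of all genes in this direction. Mmp7 differed most: 12.8 to 52.4 CPM in the 8 jejunum organoid libraries against 0 to 4.64 CPM in the 7 jejunum tissue libraries, with no overlap (log2 fold change 3.15 ± 0.53, edgeR adjusted p = 9.08e-06). Its values in jejunum tissue were 2.38, 2.66, 0.432 and 1.31 CPM with ethanol and 2.90, 0 and 4.64 CPM in controls. Itln1 was higher in organoids by 1.03 ± 0.24 (edgeR adjusted p = 0.000478), and its lowest organoid library, at 1628 CPM, lay above its highest tissue library, at 990.1 CPM. Ang4 was higher by 1.25 ± 0.47 (edgeR adjusted p = 0.0228), a call lost without ethanol jejunum organoid library 1 (0.92, adjusted p = 0.0707) or control jejunum tissue library 1 (1.11, adjusted p = 0.0616) and in control samples alone (0.87, adjusted p = 0.305).

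Mptx2 was the member that was lower in jejunum organoids, by -2.31 ± 0.41 on the log2 scale (edgeR adjusted p = 5.38e-05), although the ranges of 2.45 to 16.02 CPM in organoids and 10.2 to 57.0 CPM in tissue overlapped. Lyz1 differed by -0.27 ± 0.33 (edgeR adjusted p = 0.494), and by 0.14 in control samples alone. Relative to Lyz1, then, intelectin RNA was higher in culture: the ratio of Itln1 to Lyz1 was 1.51 to 2.60 in the 8 organoid libraries (median 2.15) and 0.613 to 0.948 in the 7 tissue libraries (median 0.827). The ratio is taken within a library, so no scaling between libraries moves it. Of 18 tested alpha-defensins, 9 were higher and 5 lower in jejunum organoids, so the Paneth products did not all move one way.

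In the colon, Lyz1 and Mmp7 were higher in organoids and Ang4 was lower, where 52.5% of 14785 genes were called, 18.3% higher and 34.2% lower. Lyz1 had 39.4 to 202 CPM in colon organoids against 1.98 to 10.3 CPM in colon tissue, or 3.95 ± 0.40 on the log2 scale (edgeR adjusted p = 2.11e-08). It was 3.07 without ethanol colon organoid library 1 and 2.78 with Lyz2 counts added, and Lyz2 alone was higher by 1.34 (adjusted p = 0.0366). Mmp7 was higher in colon organoids by 5.16 ± 0.67 (edgeR adjusted p = 5.97e-07), with 0, 0.198, 0 and 0.586 CPM in ethanol and 0.157, 0, 0.549 and 0.406 CPM in control colon tissue. Its call was lost without ethanol colon organoid library 1 (1.63, adjusted p = 0.984), which leaves the other ethanol library with 0, and its fold was 5.84 without ethanol colon tissue library 4.

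Ang4, the only member above 20 CPM on average in colon tissue, was nearly absent from colon organoids, with 9 counts in 4 libraries, and was lower there by -6.38 ± 1.34 (edgeR adjusted p = 0.000446), or by -5.54 without ethanol colon tissue library 1. The 10 goblet markers summed to 4186 and 5163 CPM in ethanol and 337 and 2097 CPM in control colon organoids, against 7237 to 57929 CPM in colon tissue. Of these 10 markers 7 were lower in colon organoids and none higher (median -4.77), and the part of this in the Ang4 difference was not tested. Although mean Itln1 was 2.30 CPM in colon organoids and 1.91 CPM in colon tissue, its fitted fold was -2.11 ± 1.16 (edgeR adjusted p = 0.129). That value passed in control samples alone (adjusted p = 0.0216), where the organoids had no counts and colon tissue 0.549 to 2.52 CPM, and without ethanol colon organoid library 1 (-3.56, adjusted p = 0.00722). Neither Ang4 nor Itln1 had a count in control colon organoids, so the sizes of their fitted folds depend on the prior count. Mptx2 had no count in either kind.

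The step from jejunum to colon therefore differed between organoids and tissue, and a test of that difference called 3 members, where 50.5% of 14785 genes were called, 28% higher and 22.5% lower. For Lyz1 the jejunum over colon fold was smaller in organoids than in tissue, at -4.23 ± 0.52 for the difference on the log2 scale (edgeR adjusted p = 2.13e-07), -3.33 without ethanol colon organoid library 1 and -3.05 with Lyz2 counts added. For Ang4 it was larger in organoids by 7.64 ± 1.39 (edgeR adjusted p = 9.49e-05), or 6.95 without ethanol colon tissue library 1. For Itln1 it was larger by 3.14 ± 1.05 (edgeR adjusted p = 0.0143), a call lost without control colon organoid library 1 (3.17, adjusted p = 0.108), and 4.61 without ethanol colon organoid library 1. Mmp7 differed by -2.01 ± 0.86 (edgeR adjusted p = 0.0517), with the sign turned without ethanol colon organoid library 1 (1.52). The Ang4 and Itln1 values rest on 9 and 25 counts in colon organoids, none of them in controls. Their sizes therefore depend on the prior count and are not measured differences. All of these comparisons draw on the same libraries as those above.

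Ethanol was compared with water within each kind of sample, starting with the jejunum, where the members are expressed. In jejunum organoids none of the 5 was called, and neither was any of 10608 genes (0%). Unadjusted p-values under 0.05 numbered 755 (7.12%), DESeq2 called 9 genes and limma-voom 0. All 5 fitted folds were below 0, with a median of -0.50, against -0.00 over all genes tested, and each gene's ethanol and control ranges overlapped (ranges were apart for 3.8% of all genes). Itln1 stood at 1953 ± 538 CPM in ethanol and 2886 ± 401 CPM in control organoids (SD, n = 4 each), on the log2 scale -0.57 ± 0.19 (edgeR unadjusted p = 0.0106, adjusted p = 0.599). Ethanol library 1, at 2755 CPM, lay above 2 of the 4 controls, and without it the fold was the largest of those seen when 1 library was left out, at -0.81 (edgeR adjusted p = 0.0814).

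The other members of jejunum organoids showed the same order with more overlap. Mmp7 stood at 20.9 ± 9.86 CPM in ethanol and 34.8 ± 12.7 CPM in control organoids (-0.71 ± 0.37, edgeR adjusted p = 0.704). Lyz1 stood at 1009.6 ± 552 CPM in ethanol and 1423 ± 487 CPM in controls (-0.50 ± 0.43, adjusted p = 0.806), and Ang4 at 187.5 ± 131 CPM in ethanol and 266 ± 88.2 CPM in controls (-0.50 ± 0.51, adjusted p = 0.832). Mptx2 stood at 5.98 ± 2.21 CPM in ethanol and 7.35 ± 5.95 CPM in controls (-0.33 ± 0.52, adjusted p = 0.896), and its sign turned without control library 1 (0.43). Ethanol library 1 held the highest Lyz1, Ang4, Itln1, Mmp7 and Mptx2 of its group. An exact permutation test of each gene alone gave two-sided p = 0.0857 for Itln1, 0.114 for Mmp7, 0.229 for Lyz1 and for Ang4 and 0.943 for Mptx2, and 0.0286 is the smallest p that 4 against 4 libraries allow. The alpha-defensins had the same sign in 17 of 18 cases with a median of -0.42, and none was called. As genes of 1 family that may share reads, they do not give separate observations.

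In jejunum tissue the members parted into a pair with fitted folds below 0 (Mptx2, Ang4) and a pair above it (Lyz1, Itln1), Mmp7 being too low to be tested. None was called, as was none of 13434 genes (0%). Before adjustment 1475 genes (11%) had a p under 0.05, DESeq2 called 31 genes and limma-voom 0, and the median over all genes was 0.15, or 0.02 with the scaling of DESeq2. Mptx2, with 10.2 to 21.0 CPM in ethanol and 17.4 to 57.0 CPM in control tissue, stood at -1.64 ± 0.46 on the log2 scale (SE, edgeR unadjusted p = 0.00373, adjusted p = 0.237). Its groups overlapped through control library 1, at 17.4 CPM, and ethanol library 2, at 21.0 CPM. The adjusted p of Mptx2 was 0.0785 with DESeq2, 0.261 with limma-voom, 0.349 with the donor number as a block and 0.673 with only the 2 groups in the fit, and 0.1003 to 0.419 when 1 library was left out. Ang4, with 26.8 to 60.8 CPM in ethanol and 59.5 to 147 CPM in control tissue, had -1.30 ± 0.76 (edgeR adjusted p = 0.571), overlapping by 1 library. Within each of the 3 pairs of libraries with the same donor number, both Mptx2 and Ang4 were lower in the ethanol library. The labels do not say that a number links an ethanol and a control mouse. This order also follows largely from the small overlap of the groups, so it is no separate support. With the number as a block Ang4 stood at -1.19 (edgeR adjusted p = 0.648). No member had ranges apart, against 7.41% of all genes.

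Lyz1 and Itln1 did not follow them. Lyz1 stood at 1144 ± 451 CPM in ethanol and 958 ± 142 CPM in control jejunum tissue (0.30 ± 0.41, edgeR adjusted p = 0.841), and Itln1 at 842 ± 274 CPM in ethanol and 826 ± 81.3 CPM in controls (0.07 ± 0.32, adjusted p = 0.964). The sign of Itln1 turned under several settings, such as -0.044 with the scaling of DESeq2. Set against the summed counts of 5 epithelial markers, Ang4 was 7.64 ± 2.25 per 1000 epithelial counts in ethanol and 19.99 ± 9.54 in control tissue (SD, n = 4 and 3). The exact permutation p was 0.0571, the smallest possible with 4 against 3 libraries, and 0.114 in CPM outside Rn45s. Mptx2 was 2.38 ± 0.787 per 1000 in ethanol and 7.88 ± 4.34 in controls (exact permutation p = 0.114). Per epithelial counts the exact permutation p was 0.8 for Lyz1, 0.914 for Itln1 and 0.8 for Mmp7. None of these values was adjusted over the genes. The 24 alpha-defensins summed to 8493 to 19995 CPM in ethanol and 20579.5 to 29354 CPM in control tissue, without overlap. Of all single genes tested, 1.73% had an ethanol range wholly below the control range. Of 15 tested defensin folds 14 were below 0 (median -0.80), and none was called. Genes of 1 family may share reads, so these signs are not separate observations. Other features differed between these libraries: the 6 smooth muscle genes had folds below 0 (median -0.68), 6 of the 7 regulators had folds above 0 (median 0.71), and none of either list was called. Counts outside Rn45s ran from 2099739 to 7606668 in ethanol and from 684906 to 1510057 in control tissue, and Rn45s took 53.4% to 80.8% in ethanol and 76.3% to 84.3% in controls. The part of these in the values of the members was not tested.

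**Figure D3:**
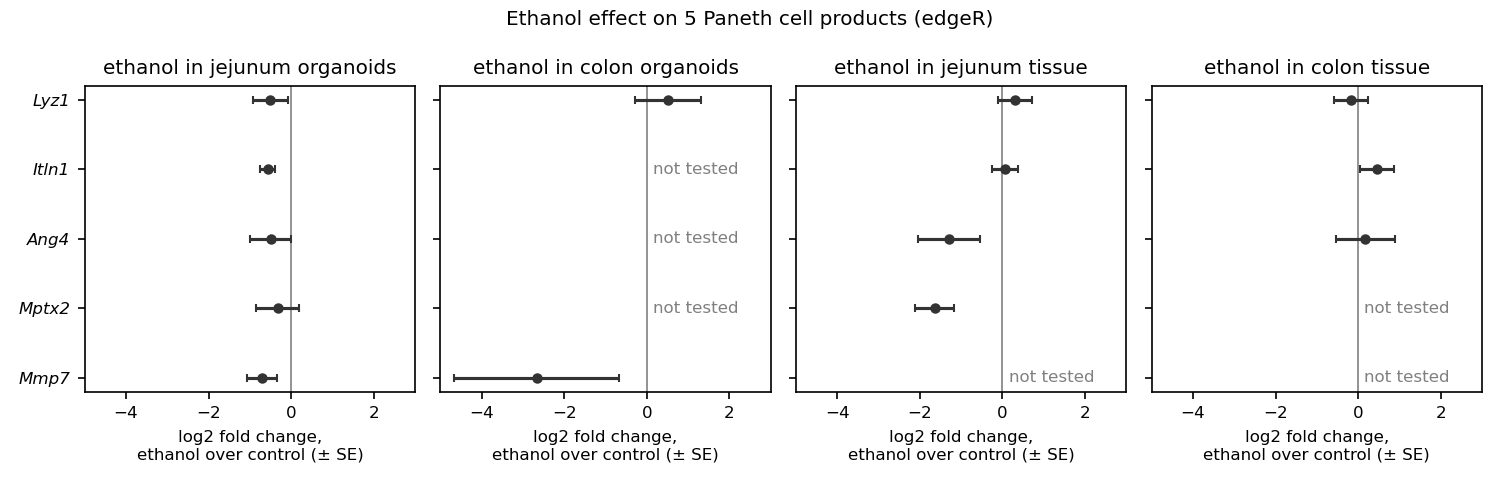
Log2 fold change of ethanol over control for each of the 5 genes in each kind of sample, from edgeR, with bars of 1 standard error. The 5 values in jejunum organoids lie between -0.71 and -0.33, while in jejunum tissue Mptx2 (-1.64) and Ang4 (-1.30) lie below 0 and Lyz1 (0.30) and Itln1 (0.07) above it. No value passed an adjusted p of 0.05.

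The ratio of 2 members within a library restates the same counts free of any scaling between libraries. It is no separate support for the contrast. Lyz1 counts were 50.6 to 152 times those of Mptx2 in ethanol jejunum tissue and 16.4 to 47.6 times in control jejunum tissue, and these ranges did not overlap. The difference was 1.76 on the log2 scale, with an exact permutation p of 0.0571, the smallest the design allows, and an adjusted p of 0.457 over the 16 ratios compared, which were chosen after the values were seen. Lyz1 over Ang4 was 12.8 to 60.2 in ethanol and 6.34 to 13.9 in control tissue (log2 difference 1.498, exact permutation p = 0.114). Mptx2 over Ang4 was 0.234 to 0.397 in ethanol and 0.293 to 0.457 in controls, and Lyz1 over Itln1 was 1.07 to 1.63 in ethanol and 1.05 to 1.21 in controls, both overlapping (exact permutation p = 0.457 and 0.229). In jejunum organoids Lyz1 over Mptx2 was 125 to 207 in ethanol and 129 to 489 in controls (log2 difference -0.53, exact permutation p = 0.257). Lyz1 over Ang4 there was 4.35 to 7.44 in ethanol and 4.45 to 6.07 in controls, and Lyz1 over Itln1 was 0.397 to 0.664 in ethanol and 0.384 to 0.610 in controls, and the ranges of all 3 ratios overlapped.

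**Figure D4:**
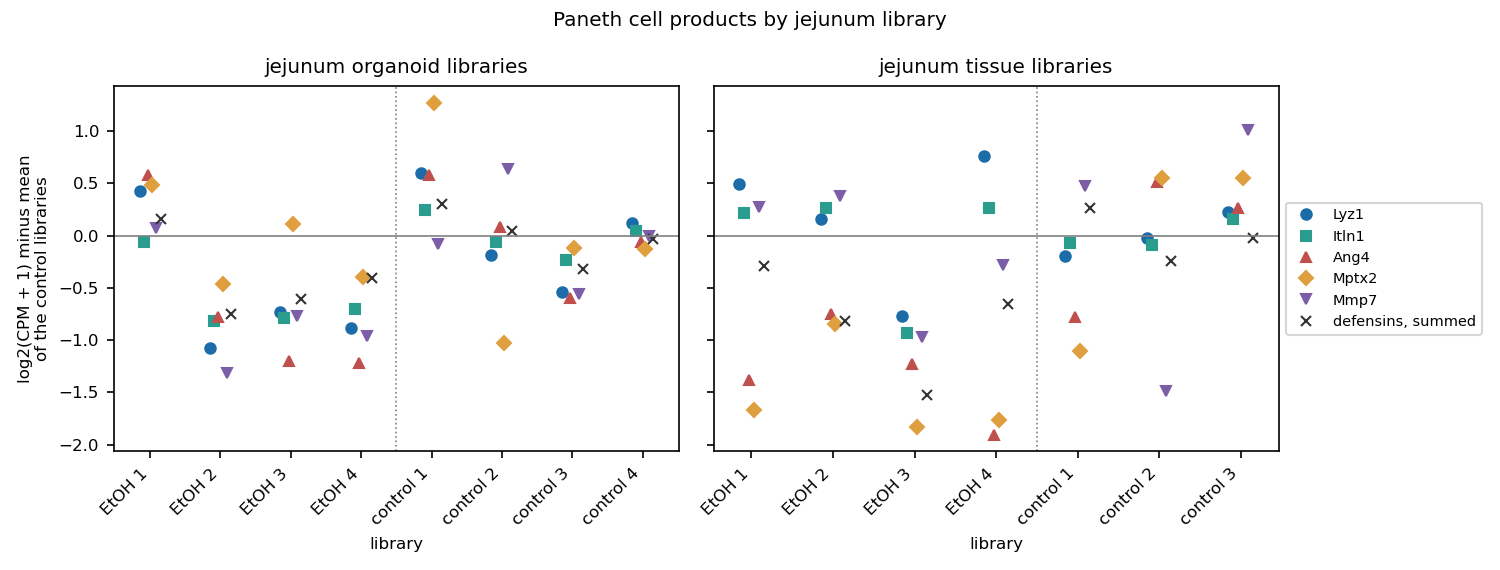
Level of each gene, and of the summed alpha-defensins, in every jejunum library, as log2(CPM + 1) minus the mean of the control libraries of that kind (vertical axis), with ethanol libraries left of control libraries and 0 at the control mean. In tissue, Mptx2 at 10.2 to 21.0 CPM and Ang4 at 26.8 to 60.8 CPM with ethanol reach only the lowest control library, whereas the ethanol values of Lyz1 and Itln1 lie on both sides of the control mean.

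In colon tissue, 1 of 13434 genes was called with ethanol (0.00744%) and none of the members, with 330 genes (2.46%) at a p under 0.05 before adjustment. Ang4 stood at 27.1 ± 37.7 CPM in ethanol and 22.5 ± 11.3 CPM in control colon tissue (SD, n = 4 each), where ethanol library 1 had 83.3 CPM and the other ethanol libraries 3.60 to 13.3 CPM, below the 14.4 to 39.1 CPM of all 4 controls. Its log2 fold change was 0.17 ± 0.71 (edgeR adjusted p = 1), and -1.42 without ethanol library 1. The libraries set apart by Hoxb13, ethanol libraries 1 and 2 and control library 1, had 83.3, 13.3 and 39.1 CPM of Ang4. The part of this in the Ang4 values was not tested. Lyz1, at 6.23 CPM in ethanol and 6.90 CPM in control colon tissue on average, differed by -0.17 ± 0.42 (0.09 without ethanol library 1, and 0.13 with Lyz2 counts added). Itln1, at 2.28 CPM in ethanol and 1.53 CPM in controls, differed by 0.45 ± 0.41 (edgeR adjusted p = 1 for both genes). Mptx2 had no count and Mmp7 too few to be tested.

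In colon organoids, with 2 against 2 libraries, none of 10712 genes was called (0%). Before adjustment 829 genes (7.74%) had a p under 0.05, DESeq2 called 141 genes and limma-voom 89. Lyz1 differed by 0.51 ± 0.80 (edgeR adjusted p = 0.996), and by -1.09 without ethanol library 1. Mmp7 differed by -2.66 ± 1.999 (edgeR adjusted p = 0.901), with 7.38 and 0 CPM in ethanol and 14.2 and 45.2 CPM in control colon organoids. Itln1 had 24 and 1 counts in the ethanol libraries and none in the controls, at least 4.37-fold higher by the floor of 3 counts over the control group, and Ang4 had 5 and 4 counts against none, at least 2.25-fold higher. Neither Itln1 nor Ang4 reached the count filter of the test on these 4 libraries, and the bounds cover neither the spread between libraries nor the counting error of the ethanol group. With all 12 organoid libraries in 1 fit, where colon organoids share the spread of jejunum organoids, 2260 genes were called, and Itln1 was among them (edgeR adjusted p = 0.0246).

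Whether the effect of ethanol differed between jejunum and colon was tested in organoids and in tissue. In organoids 9.8% of 12922 genes were called, 7.76% as lower in the jejunum, and among the members this held for Itln1 (edgeR adjusted p = 0.0259). The size of that difference cannot be read from the fit, since both control colon organoid libraries had no counts. The call was lost with limma-voom (adjusted p = 0.128), without control colon organoid library 1 (0.0597) and without ethanol colon organoid library 1 (0.268), which holds 24 of the 25 counts of Itln1. Ang4 was not called (adjusted p = 0.214) and passed with DESeq2 (0.0423) and without ethanol jejunum organoid library 1 (0.0376). For Lyz1 the ethanol effect in the jejunum minus that in the colon was -1.08 ± 0.85 (edgeR adjusted p = 0.499, and 0.64 without ethanol colon organoid library 1), and for Mmp7 it was 1.64 ± 1.06 (adjusted p = 0.392). In tissue none of 13434 genes was called (0%), 864 (6.43%) had an unadjusted p under 0.05 and DESeq2 called 2. The difference was 0.47 ± 0.58 for Lyz1, -1.47 ± 1.04 for Ang4 (0.06 without ethanol colon tissue library 1) and -0.38 ± 0.52 for Itln1 (edgeR adjusted p = 0.936, 0.867 and 0.938).

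Whether the members move together between libraries of a group was described with group means removed, on log2(CPM + 1). In the 8 jejunum organoid libraries all 10 pairs had a Pearson r above 0, with a median of 0.70. Lyz1 and Itln1 went together most closely, at r = 0.977 (exact permutation p = 0.00521, adjusted over 20 pairs 0.104) and Spearman rho = 0.929 (p = 0.0104, adjusted 0.208), and r was 0.861 without the 2 libraries farthest from the median of Lyz1. Ang4 with Itln1 had r = 0.938 and Lyz1 with Ang4 r = 0.905 (exact permutation p = 0.0208 and 0.0226), which became 0.445 and 0.319 without the 2 farthest libraries, so these relations rest on those libraries. In the 7 jejunum tissue libraries 6 of 10 pairs were above 0, with a median of 0.26. Lyz1 with Itln1 again stood high (r = 0.923, rho = 0.75, exact permutation p = 0.0556), as did Mptx2 with Ang4 (r = 0.902, rho = 0.857, exact permutation p = 0.0556), whereas Lyz1 with Ang4 had r = -0.167 (exact permutation p = 0.743). Without the 2 farthest libraries, r was 0.570 for Lyz1 with Itln1 and 0.776 for Mptx2 with Ang4, and none of the 20 pairs passed adjustment. The libraries of a group share preparation and scaling, so these values are a description.

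Over the 8 group means the members were set against each other by a measure that reflects level as well as pattern. Genes were centred but not scaled, so a scarce gene differs from an abundant one even where both are near 0 in the colon. Mptx2 and Itln1, for example, differed by 3.07. The root mean square difference of log2(CPM + 1), each gene centred on its own mean, was 1.78 for the closest pairs, Ang4 with Mptx2 and Lyz1 with Mptx2, and 4.34 for the farthest, Itln1 with Mmp7. Among 12234 genes, those nearest to Itln1 were Gm10104 (0.52), the fatty acid binding protein gene Fabp1 (0.69) and the defensins Defa21 (0.81), Defa24 (0.88) and Defa3 (0.995). Nearest to Lyz1 were Anxa13 (0.93), Gata4 (0.96), which encodes a transcription factor of the small intestine, Abcc2 (1.06), Soat2 (1.14) and Ugt2a3 (1.27). Mmp7 stood nearest to 1700016C15Rik (0.38), Mab21l3 (0.71), Itpripl1 (0.86), Olfm4 (0.89), a gene of crypt base stem cells, and Wdr67 (0.90). Ang4 stood nearest to 2210404O07Rik (0.53), Clps (0.74), Gm11545 (0.79) and Slc6a4 (0.85), and Mptx2 to G6pc (0.52), 2010001E11Rik (0.55), Slc23a1 (0.55), Cndp1 (0.55) and the Paneth cell zinc transporter gene Slc30a2 (0.58). By this measure, genes of the Paneth lists stood among the nearest of Itln1 (3 defensins), Ang4 (Clps) and Mptx2 (Slc30a2), and none among those of Lyz1 or Mmp7. As level enters the measure, this does not show which members share a pattern with Paneth genes.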

How the data were processed

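The authors deposited raw counts per gene, in whole numbers and by symbol, for 27 libraries made with the QuantSeq 3' kit. The tools named, per the submitters' processing notes, are Trimmomatic 0.32, BWA, HTSeq, limma and edgeR, with the build mm10. Settings, read length and strand of counting are not given in the sources used here, so overlapping genes and near-identical 3' ends may share reads. A normalized table that the authors added was not used. No 2 libraries of a group were alike within sampling noise (chi-square per degree of freedom 2.94 to 88.8 over 35 pairs).

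The main test was that of edgeR 4.0.16 (R 4.3.3; TMM on the whole table, filterByExpr, robust quasi-likelihood F-test, two-sided, Benjamini-Hochberg adjustment over all genes kept, calls at an adjusted p under 0.05). Ethanol was tested within jejunum organoids, within colon organoids, and among all 15 tissue libraries. The segment comparisons and the differences in ethanol effect used all 12 organoid or all 15 tissue libraries, and organoids against tissue used all 27. Folds are log2 ± SE of the fit, and levels are CPM outside Rn45s. Where a group held no count, a fold is a bound against 3 counts over the group. Floors and intervals cover counting error alone, as no molecular identifiers were read. Single values were tested by exact permutation (scipy 1.17.1, Python 3.11.15). The calculation was tested on simulated counts.

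All 5 members are named in every comparison, and of other lists the counts and up to 4 called genes with the lowest p. Likeness takes the 5 nearest genes with at least 10 CPM in a group, of which 1 is not reported here. Members and lists were chosen with earlier results of these data known. P-values measure the spread between these libraries, which the labels give separate donor numbers in a group. Same-numbered libraries correlated over 0.1 in every pair only for ethanol and control jejunum tissue (0.140 to 0.161, 3 pairs, over 7603 genes). Between jejunum and colon every such pair was above 0 in ethanol tissue (0.0465 to 0.121), ethanol organoids (0.0484 to 0.0627) and control organoids (0.0542 to 0.107). Differently numbered pairs there reached 0.182, 0.0702 and 0.0619. For ethanol and control colon organoids the value was 0.0115. The main tests used no block, and the number was a block in alternative fits. For segments and for organoids and tissue of 1 treatment, the number may mark the same mouse, and the donor within treatment was a further block.

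Other settings tried were another scaling (RLE), no filter on low counts, Rn45s left out, DESeq2 1.42.0, limma-voom (limma 3.58.1), blocks, other sets of libraries, control groups alone, another denominator or pseudocount, and leaving out each library. Chosen after seeing the data were Lyz1 and Lyz2 counts summed, the exact test of members in jejunum organoids, and the ratios of 2 members.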

Additional observations from a re-analysis of the deposited data

Results flagged for a closer look

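In 6 of 23 sets of 1 gene in 1 group of 4 libraries, a library stood apart from the other 3 by more than Dixon's 95% limit, and chance alone gives about 1 in 20 such sets. Ethanol jejunum organoid library 1 accounts for 3 of them, with 1829.9 CPM of Lyz1, 382 CPM of Ang4 and 2755 CPM of Itln1, each above the other 3 ethanol libraries (up to 824, 148 and 1766 CPM). Ethanol jejunum tissue library 2 had 21.0 CPM of Mptx2, above 10.2 to 11.4 CPM in the others. Ethanol jejunum tissue library 3 had 432 CPM of Itln1, below 959 to 990.1 CPM in the others. Ethanol colon tissue library 1 had 83.3 CPM of Ang4, above 3.60 to 13.3 CPM in the others.

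A test of whether the effect of ethanol differed between jejunum and colon organoids called Itln1 (edgeR adjusted p = 0.0259), a call lost with limma-voom (adjusted p = 0.128). Itln1 had 25 counts in colon organoids, none of them in controls, and did not reach the count filter there without the jejunum organoids. This call therefore does not establish a difference between the segments. The fitted difference of -7.82 on the log2 scale depends on the prior count, since both control colon organoid libraries had no counts, and it is not a measured fold. The jejunum over colon fold differed between organoids and tissue for Lyz1 (-4.23 on the log2 scale, edgeR adjusted p = 2.13e-07), Ang4 (7.64, adjusted p = 9.49e-05) and Itln1 (3.14, adjusted p = 0.0143). For Ang4 and Itln1 these sizes depend on the prior count in the same way. Lyz1 averaged 109.7 CPM in colon organoids and 6.57 CPM in colon tissue, and 1216 CPM in jejunum organoids and 1064 CPM in jejunum tissue.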

How the results depend on the processing

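Of 544 member values refitted without 1 library, 511 kept their direction and their side of the threshold, 13 lost a call, 10 gained one and 10 turned sign; of 413 under other settings, 390, 6, 4 and 13 did. The number of members called changed by less than 1.5 times in some other settings, and by more in 4 of 94: for ethanol in colon organoids it was 1 with all 12 organoid libraries in 1 fit (0 as reported), for the difference of ethanol effects in organoids 2 with DESeq2 and 0 with limma-voom (1 as reported), and for jejunum over colon in organoids 3 with the donor number within treatment as a block (5 as reported, Mptx2 and Mmp7 lost). Without 1 library it was 0 to 2 for the difference of ethanol effects in organoids, 4 to 5 for jejunum over colon in organoids, 4 in tissue, 3 to 4 for organoids over tissue in the jejunum, 3 in the colon and 3 to 4 for the segment difference. The cause of these changes was not tested.

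The sign turned for Itln1 with ethanol in jejunum tissue (-0.044 with RLE and with DESeq2, -0.050 with the replicate block, -0.032 with only the 2 groups, -0.045 to 0.27 without 1 library), for Ang4 in colon tissue (-0.83 with limma-voom, -0.19 with the replicate block, -1.42 to 0.54 without 1 library), for Lyz1 there (0.13 with Lyz2 added, -0.46 to 0.092 without 1 library), for Lyz1 in colon organoids (-1.09 to 1.31 without 1 library) and for Mptx2 in jejunum organoids (-0.64 to 0.43 without 1 library). It also turned for the difference of ethanol effects of Lyz1 in organoids (-1.81 to 0.64 without 1 library) and of Ang4 in tissue (-1.83 to 0.056), the segment difference of Mmp7 (-2.70 to 1.52), the high end of each without colon ethanol library 1, and for Lyz1 in jejunum organoids over tissue (0.14 in controls alone). Mmp7 per epithelial counts with ethanol in jejunum tissue was 0.36, against -0.15 in CPM, and 4 correlations in jejunum tissue turned without the 2 farthest libraries (Lyz1 with Ang4 0.24, Mptx2 with Mmp7 0.68, Ang4 with Itln1 0.31, Ang4 with Mmp7 0.46).

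With the donor number as a block, pairing ethanol and control, no member call in jejunum tissue changed, and Mmp7 was lost for jejunum over colon in organoids (1.73, adjusted p = 0.0726). Calls over all genes moved by over 1.5 times with ethanol in colon organoids (0, against 179 with no filter, 141 with DESeq2, 89 with limma-voom, 147 with the block, 2260 with all 12 libraries and 22 to 2335 without 1 library), in jejunum organoids (0, against 3 with no filter and 9 with DESeq2), in jejunum tissue (0, against 31 with DESeq2 and 1 with only the 2 groups) and in colon tissue (1, against 2 with DESeq2 and 0 with limma-voom, the block or only the 2 groups), for the difference of ethanol effects in organoids (1267, against 2148 with DESeq2, 447 with the block and 724 to 4816 without 1 library) and in tissue (0, against 2 with DESeq2), and for jejunum over colon in organoids (7739, against 2556 with the donor block within treatment). Depth limits Mptx2, Ang4 and Itln1 in colon organoids, with 0, 9 and 25 counts, where 3 counts over all 4 libraries are 0.426 CPM.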
